A study of Anser cygnoides with 6 samples.

Results

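Genes for the enzymes that cut the extracellular matrix, and for the proteins that restrain those enzymes, were followed in the ovary of the swan goose, Anser cygnoides, in broody birds and in reproductive birds. The genes were chosen by symbol: matrix metalloproteinases (MMP), ADAM and ADAMTS proteases with the ADAMTS-like proteins, tissue inhibitors of metalloproteinases (TIMP), RECK, and the plasminogen activators PLAT and PLAU with their receptor and the inhibitor SERPINE2. This rule found 47 genes among the 14696 in the deposited table, 30 by the symbol the table gives and 17 by the name of the same gene identifier in a reference table. MMP14, TIMP1, TIMP2 and PLAUR, which a reader would look for first, were not among the named genes and were not analysed here.

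Each group had 3 libraries. Broody geese were labelled with the stage of broodiness, when laying has ceased, and per the labels' protocols they had been force-moulted under short illumination. Reproductive geese were labelled with the stage of reproduction. All birds were raised to 40 weeks of age, and the growth protocol gives every library the same light programme of 11 h light and 13 h dark. Broodiness therefore cannot be told apart from forced moulting, nor from light if the programmes differed. Nothing in the labels says that each library is a different bird, so p-values measure only how much these samples vary, and that variation may be technical. The sample labels name ovary while the design text names oviduct. Oocyte and granulosa genes such as ZP2 (459 to 560 FPKM in broody and 47.7 to 238 FPKM in reproductive libraries) and FSHR (45.9 to 53.3 FPKM in broody and 19.5 to 66.5 FPKM in reproductive libraries) were present in all 6 libraries. The granulosa marker INHA was near absent, at 0.0472 FPKM or lower in all 6. Of 10 oviduct epithelium markers 3 were found, at summed levels of 19.9 to 25.3 FPKM in broody and 14.6 to 75.8 FPKM in reproductive libraries. The highest sum was that of reproductive 2, where TF had 71.1 FPKM, against 0.969 to 4.79 FPKM in the other libraries. LYZ, at low levels, was highest there too. FOXJ1 ran the other way, at 16.3 to 20.3 FPKM in broody and 3.27 to 12.1 FPKM in reproductive libraries. Its lowest value was that of reproductive 2, so the sum joins markers that moved in opposite directions. Reproductive 2 also had the lowest summed level of oocyte and germ cell markers, 124 FPKM. Its summed level of smooth muscle markers, 7160 FPKM, was the highest.

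Matrix metalloproteinases are zinc enzymes that cut collagens, laminins and other matrix proteins, and most are made as inactive precursors. ADAMs cut proteins off the cell surface, whereas ADAMTS proteases are secreted and cut proteoglycans, procollagens and other matrix proteins. TIMPs block these enzymes, and the urokinase-type and tissue-type plasminogen activators, PLAU and PLAT, turn plasminogen into plasmin, which itself cuts matrix and activates some metalloproteinases. In the ovary of birds and mammals these enzymes are studied for their part in follicle growth, rupture of the follicle wall at ovulation, and regression of the emptied or atretic follicle.

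Values are FPKM, the fragments counted on a transcript divided by its length and by the sequenced fragments of its library, summed over the transcripts of a gene. FPKM are per length, so levels can be compared between genes. Differences are broody minus reproductive on the log2(FPKM + 1) scale, given with a standard error (SE). They understate the change of genes at low FPKM. A gene was tested when it had at least 1 FPKM in 3 or more libraries, and it is said to have risen or fallen when limma's Benjamini-Hochberg adjusted p, over all 11377 genes tested, was under 0.05.

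The levels were very uneven. MMP2, SERPINE2, PLAU and TIMP3 averaged at least 100 FPKM over the 6 libraries and together held 67.4 to 71.6% of the summed FPKM of the 47 genes in broody libraries and 60.5 to 71.1% in reproductive libraries. Another 10 genes averaged 10 to 100 FPKM, 28 averaged 1 to 10 FPKM and 5 averaged under 1 FPKM. The 47 genes summed to 829, 887 and 894 FPKM in broody 1 to 3, against 825, 1309 and 1163 FPKM in reproductive 1 to 3, so the sums overlapped between the groups. PLAU alone made up 17.0 to 23.4% of that sum in broody libraries, against 2.66 to 10.5% in reproductive libraries. MMP2 made up 14.1 to 18.5% in broody libraries, against 20.3 to 33.7% in reproductive libraries.

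Of the 47 genes, 41 passed the filter on low values. Of these 41, 9 rose in broody ovaries, 14 fell and 18 did not pass the test. Over all genes tested, 29.9% rose, 12.0% fell and 41.9% passed in either direction. The counts by role given below rest on few genes each and are to be read beside these shares. The median difference of the 41 genes was -0.37, beside 0.23 over all genes tested. On the log2(FPKM + 1) scale PLAU and ADAM11 rose by at least 1, and ADAM12, ADAM33, ADAMTS9 and MMP2 fell by at least 1. Differences of the risen genes lay between 0.50 and 1.43, and those of the fallen genes between -1.11 and -0.48. The groups did not overlap for 25 of the 41 genes, with 10 above and 15 below in broody libraries, where over all genes tested 59.5% did not overlap, 41.3% above and 18.2% below.

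**Figure D1:**
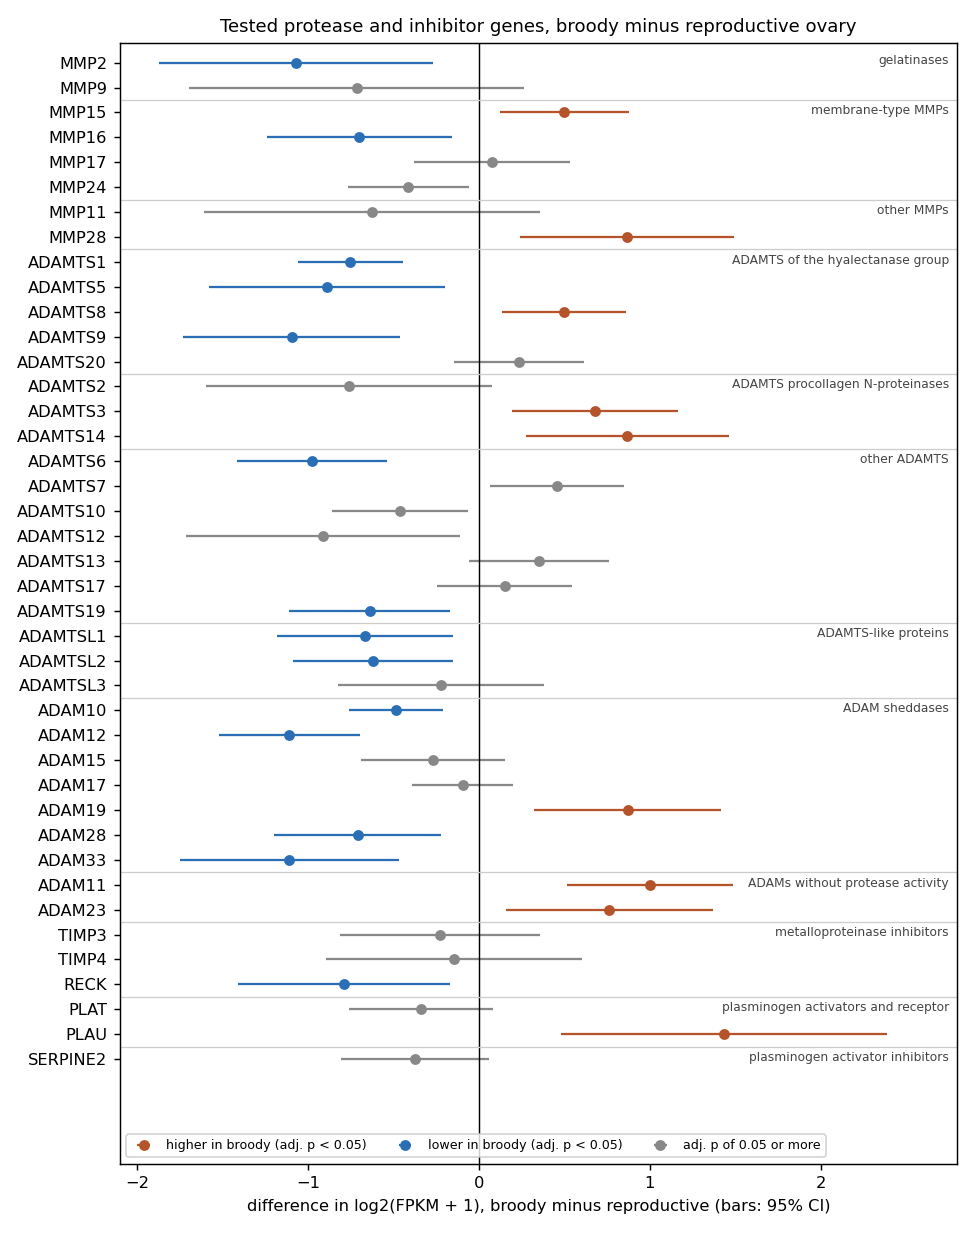
Difference in log2(FPKM + 1), broody minus reproductive, for the 41 tested genes, grouped by role; points are fitted differences, bars their 95% confidence intervals, rust red marks the 9 genes that rose, blue the 14 that fell and grey the 18 that did not pass. PLAU stands farthest to the right, at 1.43, and ADAM12 farthest to the left, at -1.11.

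The calls of the risen genes depended on scaling. Median-ratio scaling of the libraries moved the median difference of all genes tested from 0.23 to 0.02. With it 3 of the 41 genes rose and 18 fell. Upper-quartile scaling gave 2 that rose and 18 that fell, and quantile normalization gave 4 that rose and 17 that fell. The counts over all 11377 genes tested moved too. As deposited 3400 rose and 1366 fell, and with median-ratio scaling 1988 rose and 2074 fell. With upper-quartile scaling these were 1970 and 2091, and with quantile normalization 2198 and 1937. All 23 called genes kept their sign under these 3 scalings. All 14 fallen genes stayed past the threshold, whereas of the 9 risen genes ADAM11 and PLAU did so under all 3. The scalings moved the median difference of the tested members down, from -0.37 to -0.59, -0.60 and -0.54. That is the direction of a lower call, so they are a weak check on the fallen genes. MMP24, ADAMTS10, PLAT and SERPINE2, which did not pass as deposited, were called lower under at least 1 of these scalings. The calls also changed when 1 library was left out. Without broody 1, and likewise without broody 2, 0 of the 41 genes passed by limma, with 12 and 19 at an unadjusted p under 0.05. That loss was not particular to these genes. Over all genes tested, 0 were called higher and 1 lower in each of these fits. There, 4571 and 4686 of all genes had an unadjusted p under 0.05 by limma. Without broody 3, 2 rose and 8 fell, without reproductive 1 these were 3 and 11, and without reproductive 2 they were 3 and 6. The same counts over all genes tested were 1924 and 1079, 2305 and 1225, and 2487 and 1041. ADAMTS1, ADAMTS6, ADAM12, ADAM33 and ADAM11 kept their call in every alternative of the gene fit in which they were tested, except the omission of broody 1 or of broody 2. Of the 23 called genes, those lost without broody 3 were MMP2, MMP15, MMP16, MMP28, ADAMTS5, ADAMTS8, ADAMTS14, ADAMTS19, ADAMTSL1, ADAMTSL2, ADAM19, ADAM23 and PLAU. Without reproductive 1 the lost calls were MMP15, MMP16, MMP28, ADAMTS8, ADAMTS9, ADAMTS3, ADAMTS19, ADAMTSL2, ADAM23, RECK and PLAU. Without reproductive 2 they were those of MMP2, MMP15, MMP16, MMP28, ADAMTS5, ADAMTS8, ADAMTS3, ADAMTS19, ADAMTSL1, ADAMTSL2, ADAM19, ADAM28, ADAM23 and RECK. Without reproductive 3 they were those of MMP2, MMP15, ADAMTS5, ADAMTS8, ADAMTSL1 and ADAM28.

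Markers of several cell types moved with the groups. Among all genes tested 29.9% rose, 12.0% fell and 41.9% were called in either direction. Of the granulosa list 42.9% were called, near that last share. Of 9 smooth muscle markers tested, 9 fell, and the list's summed level was 335 to 999 FPKM in broody libraries, against 3246 to 7160 FPKM in reproductive libraries. Of 7 fibroblast and stroma markers 6 fell (summed level 322 to 786 FPKM in broody and 1886 to 2702 FPKM in reproductive libraries), and of 9 endothelial markers 7 fell and 1 rose (summed level 109 to 132 FPKM in broody and 193 to 247 FPKM in reproductive libraries). Of 10 macrophage and granulocyte markers tested 10 fell, with a summed level over the 11 found of 244 to 424 FPKM in broody libraries, against 581 to 1058 FPKM in reproductive libraries, while the granulocyte gene CSF3R stayed at 0.310 FPKM or lower in all 6. Of 8 oocyte and germ cell markers 8 rose, with summed levels of 969 to 1116 FPKM in broody libraries and 124 to 539 FPKM in reproductive libraries. Of 7 granulosa markers tested 2 rose and 1 fell. Over the 8 found, summed levels were 522 to 668 FPKM in broody and 259 to 405 FPKM in reproductive libraries. The untested marker, INHA, stayed at 0.0472 FPKM or lower in all 6. AMH alone held 202 to 295 FPKM of that sum in broody and 53.4 to 64.5 FPKM in reproductive libraries. FOXL2 also rose and INHBA fell. FSHR, CYP19A1, FST and GJA1 overlapped between the groups and did not pass, so the summed level does not stand for the whole list. In whole tissue, fewer cells of a type and less RNA per cell cannot be told apart. The part of these shifts in the protease results was not tested.

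**Figure D2:**
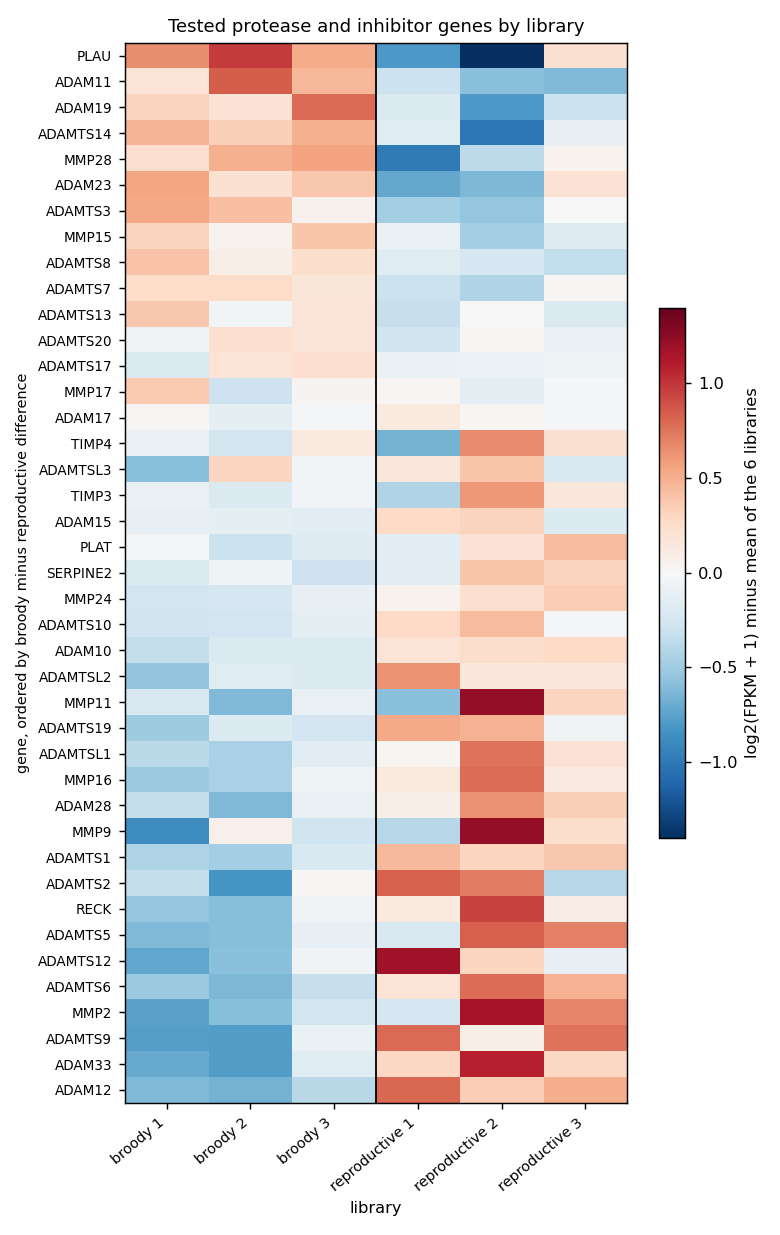
Each row is 1 of the 41 tested genes, ordered by its broody minus reproductive difference, and each column 1 library; colour is log2(FPKM + 1) minus the gene's mean over the 6 libraries. Reproductive 2 is the highest library for 16 of the 41 genes, and within the broody group broody 3 is the highest for 24 of 41.

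Of the plasminogen activators 1 of 2 rose, where 29.9% of all genes tested rose. PLAU (106033144), the urokinase-type activator, had 166, 208 and 152 FPKM in broody 1 to 3, against 60.1, 34.8 and 123 FPKM in reproductive 1 to 3. All broody libraries lay above all reproductive libraries, with reproductive 3 nearest to them. Its mean of 175 ± 29.1 FPKM in broody libraries was 2.42 times the 72.5 ± 45.2 FPKM in reproductive libraries (SD, n = 3 each), a rise of 1.43 ± 0.41 (SE, adjusted p = 0.0296). The adjusted p was 0.0574 to 0.0958 without broody 1, broody 2, broody 3 or reproductive 1, and 0.0529 when each gene was represented by its main transcript. PLAU has 1 transcript, so in that last setting its own values and difference were unchanged and only those of other genes moved. PLAT (106044399), the tissue-type activator, had 15.8, 12.9 and 14.1 FPKM in broody 1 to 3, against 14.5, 18.8 and 22.3 FPKM in reproductive 1 to 3. These ranges overlapped, and the difference of -0.34 ± 0.18 did not pass (adjusted p = 0.163, 95% confidence interval -0.76 to 0.09).

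SERPINE2 (106036248), protease nexin-1, a serpin that inhibits thrombin and the plasminogen activators, had 165, 180 and 154 FPKM in broody 1 to 3, against 171, 249 and 235 FPKM in reproductive 1 to 3. Broody 2 lay above reproductive 1, so the groups overlapped, and the difference of -0.37 ± 0.18 did not pass (adjusted p = 0.137). It was called lower with each of the 3 scalings above, at differences of -0.61, -0.61 and -0.45, and without reproductive 1, at -0.54 (adjusted p = 0.0458).

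Ratios of PLAU to SERPINE2 and to PLAT did not overlap between the groups. PLAU alone did not overlap either, as was so for 59.5% of all genes tested. SERPINE2 and PLAT differed by only -0.37 and -0.34, so the ratios largely repeat the rise of PLAU. PLAU stood at 1.01, 1.15 and 0.983 times the FPKM of SERPINE2 in broody 1 to 3, against 0.352, 0.140 and 0.522 times in reproductive 1 to 3. PLAU stood at 10.6, 16.1 and 10.7 times the FPKM of PLAT in broody 1 to 3, against 4.16, 1.85 and 5.49 times in reproductive 1 to 3. Ratios within a library do not change when the library is rescaled. They were chosen after the values had been seen and carry no test.

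**Figure D3:**
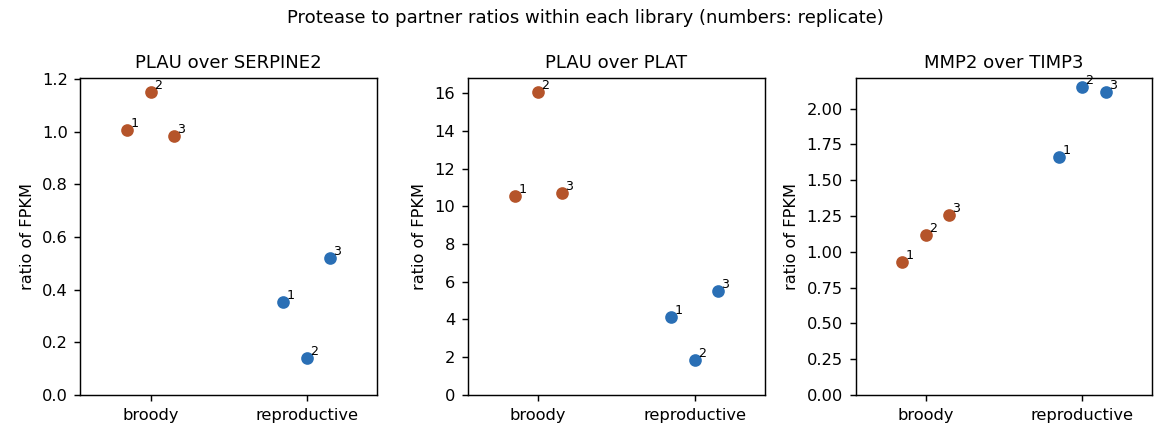
Ratio of FPKM within each library for PLAU over SERPINE2, PLAU over PLAT and MMP2 over TIMP3, with broody libraries on the left, reproductive libraries on the right and replicate numbers beside the points. The first pair of ratios lies higher in all 3 broody libraries, and MMP2 over TIMP3 lies lower in them, at 0.931 to 1.26 against 1.66 to 2.15 in reproductive libraries. MMP2 is summed over all its transcripts, coding and non-coding.

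Among the gelatinases, enzymes that cut denatured collagen and basement membrane collagen, MMP2 (106043076) had 117, 130 and 165 FPKM in broody 1 to 3, against 167, 441 and 319 FPKM in reproductive 1 to 3. The groups did not overlap, but broody 3 and reproductive 1 lay next to each other. MMP2 averaged 138 ± 24.7 FPKM in broody and 309 ± 137 FPKM in reproductive libraries (SD, n = 3 each) and fell by 1.07 ± 0.34 (SE, adjusted p = 0.0416). Without reproductive 2 the difference was -0.76 (adjusted p = 0.0807), without reproductive 3 or any 1 broody library the adjusted p was 0.0625 to 0.127, and with no filter on low values the adjusted p was 0.0605. MMP9 (106047143), the other gelatinase, had 3.0, 6.70 and 5.02 FPKM in broody 1 to 3, against 4.54, 16.1 and 7.63 FPKM in reproductive 1 to 3. Its groups overlapped and it did not pass, with a difference of -0.71 and a confidence interval of -1.69 to 0.27 (adjusted p = 0.197).

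The lower level of MMP2 lay in 1 of its transcripts, while the sum of the others stood higher in broody libraries. The table lists 45 transcripts of this gene, 4 with the RefSeq prefix of predicted mRNAs and 41 with that of predicted non-coding RNAs. The leading transcript, an mRNA, had 45.9, 59.0 and 110 FPKM in broody 1 to 3, against 134, 432 and 280 FPKM in reproductive 1 to 3. The other 44 transcripts summed to 71.3, 71.2 and 55.2 FPKM in broody 1 to 3, against 33.0, 9.33 and 38.9 FPKM in reproductive 1 to 3. Neither set of values overlapped between the groups, and they ran in opposite directions. The leading transcript held 39.2, 45.3 and 66.6% of the gene's FPKM in broody 1 to 3, against 80.3, 97.9 and 87.8% in reproductive 1 to 3.

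Each transcript was then fitted on its own over the 15191 transcripts that passed the same filter, of which 11.4% were called, 7.09% higher and 4.29% lower. The leading MMP2 transcript had a difference of -1.91 ± 0.51 (SE), with an adjusted p of 0.0557. In the fit over genes in which each gene was represented by its main transcript, the same transcript was called lower, with the same difference and an adjusted p of 0.0402. Of 11 MMP2 transcripts tested, 10 had a positive difference, 1 was called higher and 0 were called lower. Of the 60 tested transcripts of all members, 1 was called higher and 4 lower. Those 4 belong to ADAMTS1, ADAMTS6, ADAM10 and ADAM12. The only transcripts of PLAU, ADAM11 and ADAM33 did not pass in this limma fit (adjusted p = 0.0713, 0.0509 and 0.0615). Assigning fragments to 45 overlapping models is an estimate, and its part in the split was not tested.

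**Figure D4:**
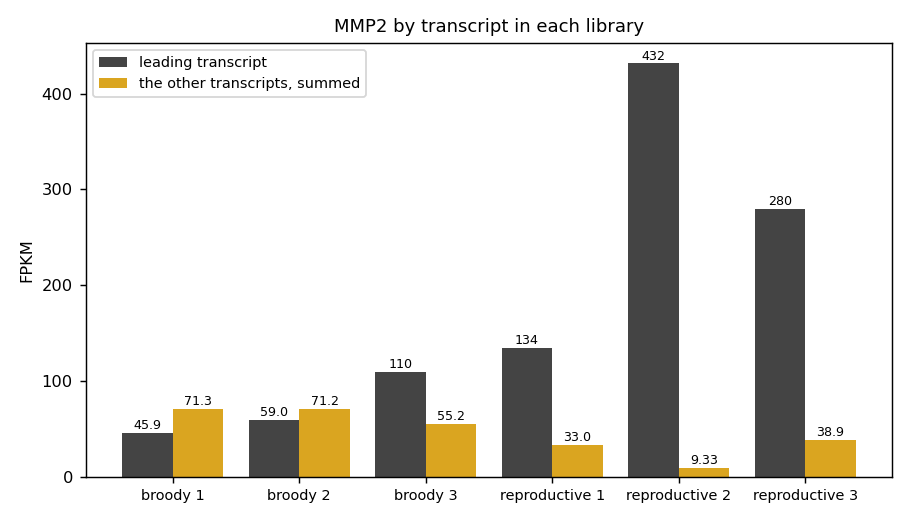
MMP2 in each library, with the leading transcript in dark grey and the sum of the other 44 transcripts in yellow, in FPKM. In broody 1 and broody 2 the other transcripts exceed the leading one, and in all reproductive libraries the leading one exceeds the others, by the most in reproductive 2.

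Among the membrane-type MMPs, which act at the cell surface, 1 of 4 tested rose and 1 fell. MMP15 (106033316) had 26.5, 21.8 and 28.0 FPKM in broody 1 to 3, against 19.7, 14.9 and 18.6 FPKM in reproductive 1 to 3. All broody libraries were above, and the rise was 0.50 ± 0.16 (adjusted p = 0.0421), though it was 0.27 with median-ratio scaling (adjusted p = 0.166). MMP16 (106030543) fell by 0.70 at low levels, 1.86 to 2.91 FPKM in broody and 3.48 to 6.06 FPKM in reproductive libraries. MMP24 stood lower in all broody libraries, 2.57 to 2.96 FPKM against 3.43 to 4.43 FPKM in reproductive libraries, without passing (adjusted p = 0.0621). MMP17 differed by 0.08, with a confidence interval of -0.38 to 0.54.

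Of the other MMPs, MMP28 (106041403), epilysin, an MMP of epithelia, had 5.99, 7.38 and 7.78 FPKM in broody 1 to 3, against 1.99, 3.60 and 5.15 FPKM in reproductive 1 to 3. The groups did not overlap, and it rose by 0.87 ± 0.27 (adjusted p = 0.0373). MMP28 did not pass with any of the 3 scalings (0.67 to 0.73, adjusted p = 0.0591 to 0.0751). MMP11, stromelysin-3, had 1.66 to 2.79 FPKM in broody and 1.72 to 8.55 FPKM in reproductive libraries, a difference of -0.63 that did not pass. It was -0.17 without reproductive 2, and -1.08 and called lower without reproductive 1 (adjusted p = 0.0483). MMP7, matrilysin, did not reach the filter, at 0.128 to 2.02 FPKM in broody and 0.540 to 1.22 FPKM in reproductive libraries. Collagenases and stromelysins such as MMP1, MMP3 and MMP13 were not analysed here.

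Of the 3 metalloproteinase inhibitors tested 1 fell and 0 rose. TIMP3 (106035822), a TIMP that binds to the matrix, had 126, 117 and 131 FPKM in broody 1 to 3, against 101, 205 and 151 FPKM in reproductive 1 to 3. The broody libraries lay inside the reproductive range, and the difference of -0.23 ± 0.25 did not pass (confidence interval -0.81 to 0.36). TIMP4 (106040067) had 8.55, 7.49 and 10.2 FPKM in broody 1 to 3, against 5.45, 15.2 and 10.8 FPKM in reproductive 1 to 3, again with the broody values inside the reproductive range (difference -0.15 ± 0.32). Without reproductive 2 the differences of TIMP3 and TIMP4 turned to 0.02 and 0.15. In each library MMP2 stood at 0.931, 1.12 and 1.26 times the FPKM of TIMP3 in broody 1 to 3, against 1.66, 2.15 and 2.12 times in reproductive 1 to 3. MMP2 here is summed over all its transcripts, most of them predicted non-coding RNAs.

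RECK (106038365), a membrane-anchored inhibitor of several MMPs, had 12.2, 11.8 and 17.6 FPKM in broody 1 to 3, against 20.1, 36.2 and 19.7 FPKM in reproductive 1 to 3. All broody libraries lay below, and RECK fell by 0.79 ± 0.27 (adjusted p = 0.0471). Without reproductive 2 the difference was -0.51 (adjusted p = 0.0799), and without reproductive 1 it was -0.92 (adjusted p = 0.0592). MMP2 stood at 9.36 to 11.0 times the FPKM of RECK in broody libraries and at 8.31 to 16.2 times in reproductive libraries, and these ratios overlapped. MMP2 in these ratios is the sum of 45 transcripts, 41 of them predicted non-coding RNAs. Those 41 summed to 53.7 to 69.4 FPKM in broody and 9.10 to 37.3 FPKM in reproductive libraries. The mRNAs summed to 47.8 to 111 FPKM in broody and 135 to 432 FPKM in reproductive libraries. Ratios with the mRNAs alone were not computed, so the overlap holds for the summed gene only.

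In the ADAMTS group that cuts versican, aggrecan and related proteoglycans, 3 of 5 tested fell and 1 rose. ADAMTS1 (106037017), which in mice is needed for normal ovulation and acts downstream of the progesterone receptor, had 21.4, 20.8 and 25.1 FPKM in broody 1 to 3, against 40.4, 36.2 and 38.4 FPKM in reproductive 1 to 3. The groups were far apart for their spread, and the fall was 0.75 ± 0.13 (adjusted p = 0.0154).

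ADAMTS9 (106035437) had 3.31, 3.25 and 5.88 FPKM in broody 1 to 3, against 11.7, 6.77 and 11.4 FPKM in reproductive 1 to 3, a fall of 1.10 ± 0.27 with no overlap (adjusted p = 0.0215). ADAMTS5 (106036987), an aggrecanase, had 7.48, 7.62 and 11.0 FPKM in broody 1 to 3, against 10.2, 22.4 and 20.3 FPKM in reproductive 1 to 3. Broody 3 lay above reproductive 1, so ADAMTS5 was the 1 gene among the 14 that fell whose groups overlapped (difference -0.89 ± 0.30, adjusted p = 0.0466). ADAMTS1 and ADAMTS5 are next to each other among the protein-coding genes of the reference assembly. ADAMTS8 (106040626) went the other way, with 2.30 to 3.08 FPKM in broody and 1.43 to 1.75 FPKM in reproductive libraries and a rise of 0.50 ± 0.16 (adjusted p = 0.0386). ADAMTS8 did not pass with any of the 3 scalings (0.33 to 0.38, adjusted p = 0.107 to 0.131). Its neighbour ADAMTS15 was under the filter at 0.164 to 0.328 FPKM in broody and 0.346 to 0.868 FPKM in reproductive libraries. ADAMTS20 did not pass, at 1.15 to 1.61 FPKM in broody and 0.841 to 1.26 FPKM in reproductive libraries.

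The procollagen N-proteinases, which trim the amino end of newly made fibrillar procollagens, had 2 of 3 higher and 0 lower. Of all genes tested 29.9% were higher. ADAMTS14 (106031518) had 5.99, 5.32 and 6.09 FPKM in broody 1 to 3, against 3.45, 1.49 and 3.64 FPKM in reproductive 1 to 3, and it rose by 0.87 ± 0.25 (adjusted p = 0.0317). ADAMTS3 (106041897) had 11.6, 10.5 and 7.97 FPKM in broody 1 to 3, against 5.18, 4.92 and 7.65 FPKM in reproductive 1 to 3, and it rose by 0.68 ± 0.21 (adjusted p = 0.0370). Broody 3 and reproductive 3 were close for ADAMTS3, and neither gene overlapped between the groups. ADAMTS2 (106032808), the member best known from skin collagen, had 9.10, 6.19 and 11.9 FPKM in broody 1 to 3, against 21.6, 19.9 and 8.66 FPKM in reproductive 1 to 3. It overlapped and did not pass (difference -0.76 ± 0.36, adjusted p = 0.119), but it was called lower without reproductive 3. With median-ratio and upper-quartile scaling neither ADAMTS3 nor ADAMTS14 passed.

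Of 7 other ADAMTS genes tested, 2 fell and 0 rose. ADAMTS6 (106035643) had 6.63, 6.07 and 7.71 FPKM in broody 1 to 3, against 11.5, 17.7 and 14.3 FPKM in reproductive 1 to 3. Every broody library was below every reproductive one, and the fall was 0.97 ± 0.19 (adjusted p = 0.0167). ADAMTS19 (106045259) fell by 0.64, with 4.06 to 5.30 FPKM in broody and 5.90 to 9.35 FPKM in reproductive libraries. ADAMTS12 did not pass (difference -0.91, adjusted p = 0.0652), and reproductive 3, at 5.29 FPKM, lay below broody 3, at 5.61 FPKM. ADAMTS7 and ADAMTS10 did not overlap between the groups and did not pass, with differences of 0.46 and -0.46. Without reproductive 3 ADAMTS7 was called higher (0.59, adjusted p = 0.0283), and ADAMTS10 (-0.59, adjusted p = 0.0317) and ADAMTS12 (-1.20, adjusted p = 0.0286) were called lower. ADAMTS13, which cuts von Willebrand factor, and ADAMTS17 differed by 0.35 and 0.15 without passing. ADAMTS18 was under the filter, at 0.256 to 0.496 FPKM in broody and 0.972 to 3.21 FPKM in reproductive libraries. Tested without a filter, it was called lower (difference -1.08, adjusted p = 0.0300).

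ADAMTS-like proteins resemble ADAMTS proteases but lack the protease domain, and some bind fibrillin microfibrils. ADAMTSL1 (106048357) fell by 0.67, at 1.06 to 1.53 FPKM in broody and 1.89 to 3.80 FPKM in reproductive libraries. ADAMTSL2 (106044116) fell by 0.62, at 1.32 to 2.02 FPKM in broody and 2.77 to 4.26 FPKM in reproductive libraries. ADAMTSL3 overlapped, at 7.23 to 14.2 FPKM in broody and 9.66 to 15.2 FPKM in reproductive libraries, and did not pass. ADAMTSL5 was under the filter, listed at 0 in broody 1 and at 0.175 and 0.367 FPKM in broody 2 and 3, against 0.0975 to 0.166 FPKM in reproductive libraries.

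Among the ADAMs with protease activity, 4 of 7 tested fell and 1 rose. ADAM12 (106038996), an ADAM of muscle precursors and other mesenchymal cells, had the smallest adjusted p of the 41 genes. It had 3.33, 3.20 and 4.10 FPKM in broody 1 to 3, against 10.6, 7.44 and 8.49 FPKM in reproductive 1 to 3. The groups did not overlap, and the fall was 1.11 ± 0.18 (adjusted p = 0.0134). ADAM33 (106043205), known from smooth muscle and fibroblasts, had 1.32, 1.21 and 2.37 FPKM in broody 1 to 3, against 3.64, 7.07 and 3.63 FPKM in reproductive 1 to 3, and it fell by 1.11 ± 0.28 (adjusted p = 0.0216).

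ADAM10 and ADAM17 are the most widely used sheddases, the first for Notch receptors and the second for tumour necrosis factor and several ligands of the epidermal growth factor (EGF) receptor. ADAM10 (106033621) had 27.3, 29.9 and 30.1 FPKM in broody 1 to 3, against 39.6, 41.1 and 42.2 FPKM in reproductive 1 to 3. Its libraries agree closely within each group, and it fell by 0.48 ± 0.12 (adjusted p = 0.0210). ADAM17 (106030708) had 16.1, 14.3 and 15.7 FPKM in broody 1 to 3, against 17.5, 16.2 and 15.7 FPKM in reproductive 1 to 3. Its groups overlapped, and its difference of -0.10 ± 0.13 had a confidence interval of -0.39 to 0.20. ADAM19 (106032686) rose, with 4.72, 4.28 and 6.99 FPKM in broody 1 to 3, against 3.02, 1.63 and 2.74 FPKM in reproductive 1 to 3 (difference 0.87 ± 0.23, adjusted p = 0.0255). ADAM19 did not pass with upper-quartile scaling (0.69, adjusted p = 0.0504). ADAM28 (106048849), known from lymphocytes, fell by 0.71, with 0.993, 0.643 and 1.34 FPKM in broody 1 to 3, against 1.67 to 2.92 FPKM in reproductive libraries. It thus reached the filter, and the count of tested genes, mainly through the reproductive libraries, where it is higher. Without a filter it was called lower (adjusted p = 0.0377), and with a replicate block it did not pass (adjusted p = 0.0651). ADAM15 did not pass (difference -0.27). ADAM8, known from myeloid cells, was under the filter, at 0.165 to 0.258 FPKM in broody and 0.922 to 1.26 FPKM in reproductive libraries, and without a filter it was called lower (difference -0.76, adjusted p = 0.0207).

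Both tested ADAMs that lack protease activity, which are known as adhesion and receptor proteins of neurons, rose. ADAM11 (106046898) had 2.79, 4.97 and 3.60 FPKM in broody 1 to 3, against 1.69, 1.21 and 1.17 FPKM in reproductive 1 to 3, a rise of 1.00 ± 0.21 with no overlap (adjusted p = 0.0175). ADAM23 (106029853) had 12.1, 9.31 and 10.5 FPKM in broody 1 to 3, against 4.40, 4.75 and 9.20 FPKM in reproductive 1 to 3. Reproductive 3 lay just under the broody libraries, the rise was 0.76 ± 0.26 (adjusted p = 0.0480), and it did not pass with any of the 3 scalings. ADAM22 stayed under the filter, at 0.396 to 0.592 FPKM in broody and 0.282 to 0.546 FPKM in reproductive libraries.

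**Figure D5:**
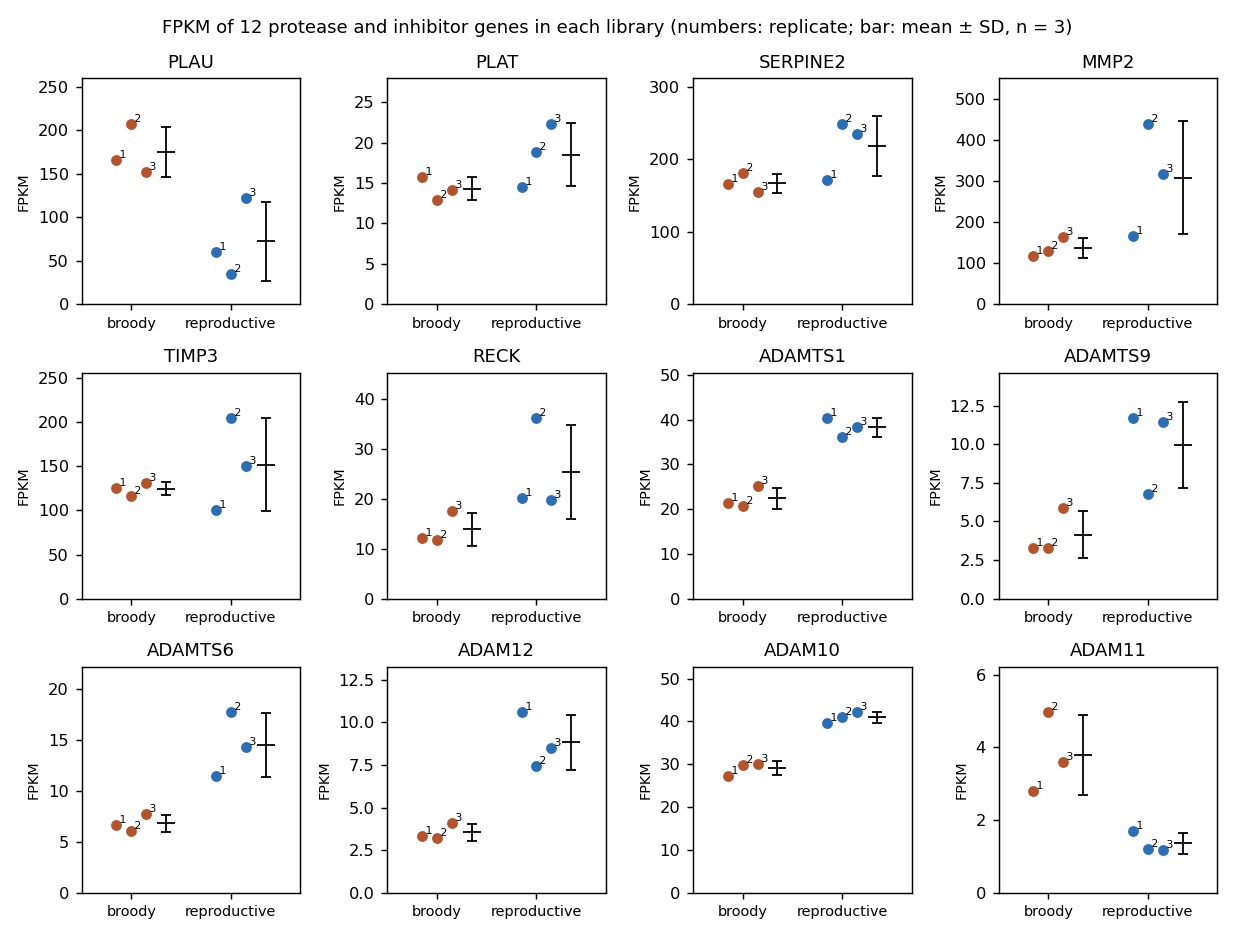
FPKM of 12 of the genes in each library, with broody libraries in rust red on the left, reproductive libraries in blue on the right, replicate numbers beside the points and the mean ± SD (n = 3) as a bar; each vertical axis starts at 0. ADAMTS1, ADAM10 and ADAM12 show tight groups that do not overlap, while SERPINE2, TIMP3 and PLAT overlap.

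Many of these genes carry several transcripts, and the split between them was unsteady. Of the 47 genes, 30 have 1 transcript in the table and 17 have more. Among the 17, the same transcript led in all 6 libraries for 7 (MMP2, MMP16, ADAMTS10, PLAT, RECK, SERPINE2 and TIMP4), and for the other 10 the leading transcript changed between libraries. For ADAM17, the transcript with the highest mean held 99.8 and 99.7% of the gene in broody 1 and 2, 0.294% in broody 3 and 0.370% in reproductive 1, while the gene's total moved little. For SERPINE2, the leading transcript held 81.4 to 85.4% in broody libraries, against 90.6 to 95.8% in reproductive libraries.

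Other genes of matrix turnover were set beside the members, as 70 tested genes from lists of substrates, further proteases, inhibitors, cofactors and regulators. Of these 70, 7 rose and 31 fell, with a median difference of -0.60. Of all genes tested 29.9% rose and 12.0% fell, with a median difference of 0.23. The called genes named from these lists had adjusted p between 0.0112 and 0.0473. Of 19 matrix substrates 14 fell and 0 rose, and their median difference was -1.36. The fallen COL1A1, COL1A2, COL3A1 and VWF are also among the stroma and endothelial markers above, so these counts share genes. COL3A1, a fibrillar collagen, had 150 ± 96.3 FPKM in broody and 1006 ± 290 FPKM in reproductive libraries (SD, n = 3 each) and fell by 2.91. COL1A1 fell by 2.60, FN1, fibronectin, by 2.40 and VWF, the substrate of ADAMTS13, by 1.84. VCAN, the proteoglycan versican cut by ADAMTS1, is named outside the naming rule for its link to that enzyme and fell by 1.34, to 9.33 ± 3.24 FPKM in broody libraries, against 25.4 ± 9.33 FPKM in reproductive libraries.

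Of 9 further matrix-degrading proteases 6 fell and 0 rose. The fallen CTSS is also among the macrophage and granulocyte markers above. CTSK, the collagen-cutting cathepsin K, fell by 3.0, to 19.1 ± 13.8 FPKM in broody libraries, against 145 ± 52.9 FPKM in reproductive libraries. HTRA3, a secreted serine protease, fell by 2.36, FAP, fibroblast activation protein, by 1.61, and PRSS35, a serine protease known from the mouse ovary, by 1.60. Of 8 other inhibitors and serpins 4 fell and 1 rose. A2M, alpha-2-macroglobulin, which traps proteases of many kinds, fell by 1.20, SERPINF1, a secreted serpin without inhibitory activity, fell by 1.50, and SERPINH1, a chaperone of collagen and no protease inhibitor, fell by 0.67. SPINT1, an inhibitor of serine proteases at the surface of epithelial cells, rose by 0.62. It did not pass with any of the 3 scalings (0.39 in each, adjusted p = 0.0722 to 0.0807).

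Of 3 proprotein convertases tested, which activate many metalloproteinase precursors, FURIN rose by 0.75, to 7.32 ± 1.32 FPKM in broody libraries, against 3.93 ± 0.772 FPKM in reproductive libraries. PCSK7 and PCSK5 did not pass (0.37 and -0.35). Of 4 astacin-type proteinase genes and their enhancers tested, PCOLCE2, an enhancer of procollagen C-proteinase, fell by 1.56, and BMP1 (-0.87), TLL1 (-0.40) and TLL2 (0.47) did not pass. PCOLCE2 had 0.506, 0.593 and 1.51 FPKM in broody 1 to 3, against 2.07 to 8.22 FPKM in reproductive libraries. It thus reached the filter mainly through the reproductive libraries. Of 11 clearance and cofactor genes 2 rose and 2 fell. ANXA2, a receptor for plasminogen and PLAT on cells, fell by 1.73, to 119 ± 17.2 FPKM in broody libraries, against 400 ± 81.5 FPKM in reproductive libraries, and THBS2, a matrix glycoprotein that in mice helps to clear MMP2, fell by 1.42. PLGRKT, another plasminogen receptor, rose by 0.71, and RHBDF2, a partner of ADAM17 in its maturation, rose by 0.78. PLGRKT did not pass with any of the 3 scalings (0.47 to 0.48, adjusted p = 0.0622 to 0.0644).

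Of 7 ligands that ADAMs release from the cell surface 3 rose and 0 fell. That is 42.9% called, near the 41.9% of all genes tested. AREG, amphiregulin, an EGF receptor ligand of the ovulatory follicle in mammals, had 69.2 ± 0.762 FPKM in broody and 26.2 ± 14.8 FPKM in reproductive libraries and rose by 1.57. HBEGF rose by 1.13 and TGFA by 0.70, while BTC did not pass (0.57). Of 9 regulators of protease genes tested 4 fell and 0 rose. PGR, the progesterone receptor, had 16.1 ± 7.78 FPKM in broody and 65.2 ± 27.9 FPKM in reproductive libraries and fell by 1.98. RUNX1, EGR1 and FOSL2, transcription factors, fell by 0.86, 0.73 and 0.63.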

How the data were processed

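The deposited table holds FPKM that the authors computed for 33089 transcripts in 6 libraries. Per the submitters' processing notes, HISAT2 and StringTie were used (no version). The sources used here name no genome build, annotation release or strand setting, and coordinates are left out. FPKM carry no counts, so depth is unknown. Summed FPKM per library lay between 319866 and 346625.

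Transcripts were summed per gene identifier (14696 genes). Names came from the table for 6611 genes and from RefSeq's gene table of the Taihu goose for 5742. There, 9 members overlap a protein-coding gene from start to end of the genes (among them TIMP3 with SYN3, TIMP4 with SYN2 and PLAT with IKBKB). Overlap of exons was not checked. Without strand, reads from any shared exon could not be told apart.

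limma 3.58.1 (R 4.3.3; lmFit, eBayes with trend, 2 groups, no covariate) was run on log2(FPKM + 1) for the 11377 genes with at least 1 FPKM in 3 libraries. Two-sided p-values were adjusted by Benjamini-Hochberg over all of them, with a threshold of 0.05. The fit was tested on simulated data. Members, lists and named genes were chosen with earlier results of these data known. All members are accounted for, and lists name up to 4 genes each by smallest p. Of the marker lists, theca had 2 of 6 tested lower, oviduct epithelium 1 of 2 higher, and no erythrocyte marker was matched. At most 0.0087% of values above 0 were identical between any pair of libraries. The fit per transcript was added after seeing the data.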

Additional observations from a re-analysis of the deposited data

How the results depend on the processing

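The values below bear on counts of genes past the threshold, with 9 members higher and 14 lower in broody libraries as deposited. With no filter 9 members were lower, and with a filter of 5 FPKM, where fewer genes were tested, 9. Of all genes, 1355 of 14600 tested and 1088 of 8892 tested were lower in these 2 settings. With median-ratio scaling 3 members were higher, with 1988 of all genes higher and 2074 lower and a member median of -0.59. With upper-quartile scaling these were 2, 1970, 2091 and -0.60. With quantile normalization 4 members and 2198 genes were higher, and 1937 genes were lower. With the main transcript of each gene alone, 2 members were higher and 8 lower, and 2180 of all genes were higher and 967 lower. Members with 1 transcript kept the same values and differences there. Some of them, such as PLAU, MMP15 and ADAMTS14, still lost their call. As only the values of other genes moved, that loss came through limma's variance estimate shared between genes or the adjustment over all genes tested. Which of these mattered more was not tested. Leaving out 1 library at a time gave 0 to 8 members higher and 0 to 13 lower, 0 to 3765 of all genes higher and 1 to 1225 lower, and 0 to 7 of the companion genes higher and 0 to 31 lower. The zeros are without broody 1 and without broody 2, and there 12 and 19 members, and 37 companion genes each time, had an unadjusted p under 0.05 by limma.

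Whether the replicate numbers in the titles pair the libraries is not known. Same-numbered libraries deviated from their group means with correlations of 0.11, -0.158 and -0.203 across genes. For differently numbered libraries these were -0.177 to 0.291. Deviations of 3 libraries from their own group mean constrain each other, so these correlations cannot decide the question. With a replicate block 5 members were higher and 7 lower, and 2225 of all genes were higher and 948 lower.

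The 23 called members kept their sign under each of the 18 alternatives in which they were tested. In most of these the sign could not turn. Filter, trend, robust and block settings leave the difference as it is. The groups did not overlap for all 9 risen and 13 of the 14 fallen members. For these, another pseudocount or the loss of 1 library cannot turn the sign, so its keeping is no check there. With pseudocounts of 0.1 and 0.5, libraries rescaled to a common total, no mean-variance trend or a robust fit, the member counts stayed at 8 or 9 higher and 13 or 14 lower. The difference in the TIMP3 to MMP2 log2 ratio, with MMP2 summed over all its transcripts, was 0.84 from FPKM and from log2(FPKM + 1). Without depth, counting error cannot be given, and it matters most for the genes under 1 FPKM.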
